A study of Homo sapiens with 4 samples.

Results

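The EGF receptor family and its ligands were examined in HFL1 cells with and without calumenin: the receptors EGFR, ERBB2 and ERBB3, the EGFR ligands EREG, AREG, TGFA, BTC, HBEGF and EPGN, and the neuregulin gene NRG1. These 10 genes were taken by symbol from the 58735 genes of the deposited expression table, a set proposed with earlier results of these data known. The study sequenced RNA of HFL1, a human fetal lung fibroblast line, in 4 libraries. The WT and KO groups had 2 libraries each, KO standing for loss of calumenin, the calcium-binding protein of the secretory pathway encoded by CALU, to ask how its loss bears on senescence and fibrosis signalling. The series text speaks of knockout or knockdown, and the sources used here do not give the number of clones, how CALU was disrupted, the culture conditions or whether replicates were grown separately. The p-values below therefore reflect only library-to-library spread, possibly of technical origin.

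EGFR ligands are made as membrane-anchored precursors, and metalloproteases cut them loose so that they can bind receptors on the same or a neighbouring cell. Binding pairs the receptors and switches on their kinases, and adaptor proteins then pass the signal to the RAS and ERK cascade, among others. ERBB2 has no known soluble ligand and works as a partner receptor, while ERBB3 binds neuregulins and has a weak kinase. In lung, signalling between these ligands and EGFR is known from epithelial repair and from fibroblast growth.

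EPGN, EREG, AREG and BTC lie in that order in a cluster on the long arm of chromosome 4. The promoters of EPGN, EREG and AREG are shown because these genes neighbour each other and differ in level. That of BTC is not shown. RefSeq promoter entries (GRCh38.p14) were found for 8 of the 10 genes, all but ERBB3 and NRG1. The stretches below end just before the first annotated exon and are all on the plus strand: EPGN chr4:74308220-74308469, EREG chr4:74364895-74365142, AREG chr4:74444886-74445133 and, for contrast, EGFR chr7:55018767-55019016. Capitals mark letters matching a searched motif on either strand, here the TATA box TATAAA, the cyclic AMP response element TGACGTCA and the GC box GGGCGG, which reads CCGCCC from the other strand.
EPGN: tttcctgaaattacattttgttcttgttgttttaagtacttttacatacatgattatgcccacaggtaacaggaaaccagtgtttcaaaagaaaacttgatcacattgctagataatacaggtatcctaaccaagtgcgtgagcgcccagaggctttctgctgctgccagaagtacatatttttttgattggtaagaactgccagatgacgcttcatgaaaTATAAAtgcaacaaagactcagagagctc
EREG: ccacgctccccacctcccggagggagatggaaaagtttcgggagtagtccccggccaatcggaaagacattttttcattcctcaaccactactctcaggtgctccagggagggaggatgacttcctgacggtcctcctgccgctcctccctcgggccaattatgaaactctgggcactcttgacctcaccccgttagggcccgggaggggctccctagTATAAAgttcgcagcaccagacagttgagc
AREG: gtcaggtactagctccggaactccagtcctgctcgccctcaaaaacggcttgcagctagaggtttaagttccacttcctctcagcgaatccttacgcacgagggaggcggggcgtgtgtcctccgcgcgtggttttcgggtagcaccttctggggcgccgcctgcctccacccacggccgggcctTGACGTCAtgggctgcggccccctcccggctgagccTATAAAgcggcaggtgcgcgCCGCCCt
EGFR: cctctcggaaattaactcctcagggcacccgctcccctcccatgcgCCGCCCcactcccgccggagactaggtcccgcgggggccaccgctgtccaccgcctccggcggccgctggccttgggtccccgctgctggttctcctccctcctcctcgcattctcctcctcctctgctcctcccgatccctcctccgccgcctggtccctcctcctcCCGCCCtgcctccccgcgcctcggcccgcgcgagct
TATAAA began 29, 32 and 29 bases before the RefSeq starts of EPGN, EREG and AREG. Of all 35116 promoter windows of 250 bases, 10.7% held TATAAA on either strand. The second EGFR start, not among the stretches shown, also had TATAAA, 36 and 146 bases before it. BTC, the fourth gene of the cluster, held none of the 6 motifs searched. AREG alone among the 8 genes held TGACGTCA, 65 bases before its start, and 1.65% of all windows held it. GGGCGG was found at 4 of the 8 genes (AREG, EGFR, HBEGF and TGFA) and in 42.6% of all windows at least once. The EGFR stretch held it at 2 places and HBEGF held it at 5. The other motifs searched were TGANTCA (AP-1, 6.57% of windows), CCGGAAG (ETS, 8.52%) and GGNNTTTCC (an NF-kB core, 5.49%). TGANTCA was found at ERBB2 and at the second EGFR start, CCGGAAG at ERBB2, and GGNNTTTCC at 0 of the 8 genes. A match describes letters, and the lack of one says only that these letters are not in the window.

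The files held FPKM values, read levels scaled for gene length and for sequencing depth. Whole reads recovered from them came to between 16173899 and 17715774 per library. Mitochondrial genes took 12.7% of reads in WT replicate 2 and 9.34% to 9.71% in the other 3 libraries. CALU stood at 87.7 and 81.8 FPKM in WT and at 6.59 and 5.95 FPKM in KO, so the labels held for the targeted gene, although 524 and 442 CALU reads remained in the KO libraries. The fibroblast label was not matched by its defining markers: 8 of 10 stayed below 1 FPKM in every library, and COL1A2 and POSTN were at 0. The summed level of the 10 fibroblast markers was 2.24 and 2.53 FPKM in WT and 4.78 and 5.40 FPKM in KO. COL1A1, which entered the test through its KO level, carried that difference: without it the sums were 2.01 and 2.25 FPKM in WT and 1.74 and 2.25 FPKM in KO. Epithelial markers were abundant in sum, at 995 and 1134 FPKM over 10 genes in WT and 1884 and 2252 FPKM in KO. However, 3 of the 10 stayed below 1 FPKM in every library. Of the 7 tested, 4 rose (KRT8, KRT18, KRT19 and CDH1) and 2 did not pass, while CLDN4, tested through its WT level only, fell. Of the 4, 2 remained without WT replicate 1 (KRT8 adjusted p 0.141, KRT18 0.104) and 2 without WT replicate 2 (0.0603 and 0.0594), and KRT8 did not pass without KO replicate 2 (0.0715). The 4 mesothelial markers summed to 32.9 and 31.4 FPKM in WT and 12.7 and 11.8 FPKM in KO: CALB2 fell from 24.5 to 2.14 FPKM and UPK3B rose 1.75-fold, and UPK3B did not pass with any 1 of the 4 libraries left out (adjusted p from 0.0586 to 0.219). The 5 endothelial and 5 leukocyte markers were all below 1 FPKM in every library. Epithelial and mesothelial markers thus differed between the groups in both directions, and their part in the results below was not tested. In bulk RNA, fewer cells of a type and less RNA per cell cannot be told apart.

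Transcripts of EGFR and of 4 of its ligands fell in the KO libraries, ERBB2 and ERBB3 did not pass the test, and no member rose. Changes were fitted with limma on log2(FPKM + 1) for the 14100 genes at 1 FPKM or more in at least 2 libraries, with Benjamini-Hochberg adjustment over all of them and a threshold of 0.05. Of the 10 genes, 9 were tested: 5 fell (EGFR, EREG, AREG, TGFA and HBEGF) and 0 rose. At an unadjusted p under 0.05 the counts were 7 lower and 1 higher, where 18.3% of all genes tested were lower and 20.5% higher. With limma voom on the recovered reads 0 rose as well. At the adjusted threshold, 11.1% of all genes tested fell and 12.1% rose. Both KO libraries lay below both WT libraries in 7 of the 9, against 31.3% of all genes tested, and above both in the other 2, ERBB2 and ERBB3, against 34.4%. HBEGF was tested only because of its WT level and ERBB3 only because of its KO level. The 7 genes at 1 FPKM or more in all 4 libraries included 4 that fell. The 11.1% above covers all genes tested, not only those at this level, so it is not a matching share.

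**Figure D1:**
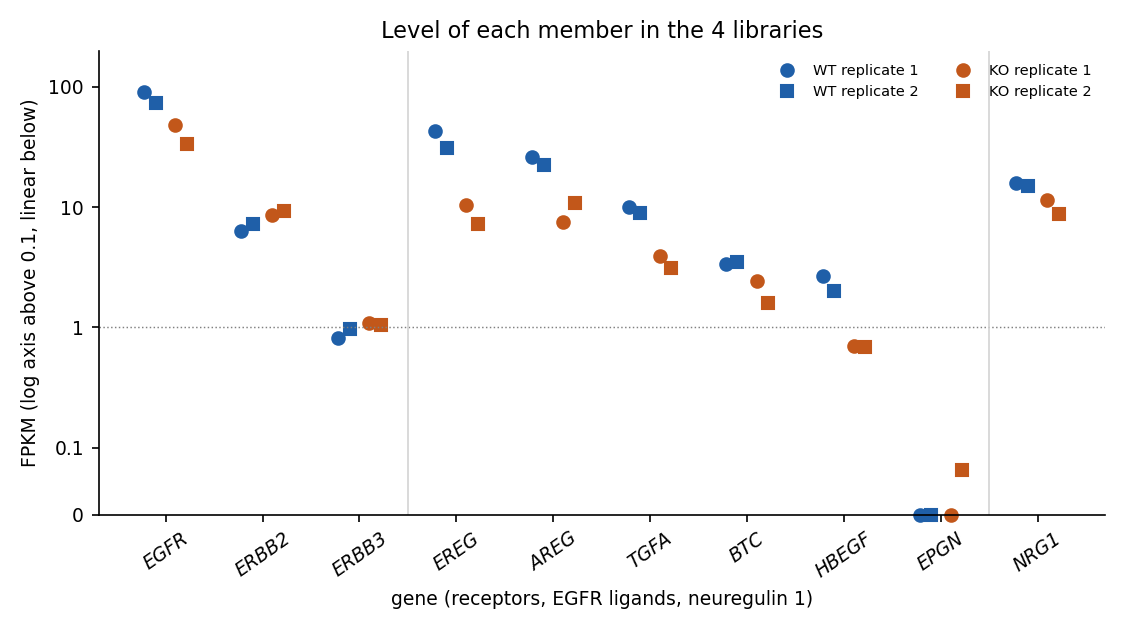
Level of each of the 10 genes in FPKM (log axis above 0.1) in the 2 WT (blue) and 2 KO (orange) libraries, with 1 point per library and the dotted line at 1 FPKM. EGFR and 5 of its ligands lie lower in both KO libraries, ERBB2 and ERBB3 lie slightly higher, and EPGN is at or near 0.

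EGFR, the receptor for all 6 ligands above (ENSG00000146648, chromosome 7, 55019021 to 55211628, plus strand, GRCh38), was measured at 90.2 and 74.1 FPKM in WT and at 47.9 and 33.4 FPKM in KO. The groups did not overlap, and KO replicate 2 was the lowest library. Mean EGFR fell 2.02-fold, from 82.2 ± 11.4 FPKM in WT to 40.7 ± 10.3 FPKM in KO (SD over 2 libraries here and below). Its limma log2 change was -1.01 ± 0.22 (SE), at an adjusted p of 0.0283. EGFR was also the called member that most often did not pass with a library left out. Its adjusted p was 0.146 without WT replicate 1, 0.0696 without WT replicate 2 and 0.0576 without KO replicate 2, with log2 changes of -0.87, -1.15 and -0.76. EGFR-AS1, a gene on the opposite strand within the EGFR span, held 102 reads over all 4 libraries against 6849 to 20616 EGFR reads per library, and the strand of counting is not given in the sources used here.

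ERBB2, the partner receptor (ENSG00000141736, chromosome 17, 39687914 to 39730426, plus strand), stood at 6.36 and 7.30 FPKM in WT and at 8.60 and 9.34 FPKM in KO. Both KO libraries were higher, by 1.31-fold on the means of 6.83 ± 0.662 and 8.97 ± 0.524 FPKM, with a log2 difference of 0.35 (SE 0.14). The unadjusted p was 0.0477 and the limma adjusted p 0.125, so ERBB2 did not pass. MIEN1 and PGAP3 overlap ERBB2 on the opposite strand with 1539 and 1253 reads over the 4 libraries, against 5569 for ERBB2, so part of the ERBB2 value is uncertain. ERBB3, the neuregulin receptor (ENSG00000065361, chromosome 12, 56076799 to 56103505, plus strand), was near the filter in every library, at 0.824 and 0.979 FPKM in WT and 1.08 and 1.05 FPKM in KO (limma adjusted p = 0.632, log2 difference 0.12, SE 0.16). ERBB3 reads numbered 136 to 171 per library.

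EGFR ranked 2 in both WT libraries and 3 in both KO libraries among 42 receptor tyrosine kinases, by FPKM. In KO replicate 2 that rank was a near tie, with EGFR at 33.38 FPKM and AXL at 33.33 FPKM. The highest was EPHA2, an ephrin receptor, at 106 and 111 FPKM in WT and 59.5 and 66.7 FPKM in KO. ERBB2 ranked 11 in every library and ERBB3 between 18 and 22. The ratio of EGFR to ERBB2 was 14.2 and 10.2 in WT and 5.57 and 3.57 in KO. The groups did not overlap, but 2 libraries against 2 cannot give an exact two-sided permutation p below 0.333, which is the value obtained.

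EREG, epiregulin, was the most abundant EGFR ligand in WT (ENSG00000124882, chromosome 4, 74365143 to 74388751, plus strand). It was measured at 42.7 and 30.9 FPKM in WT and at 10.4 and 7.27 FPKM in KO. Every KO value lay well below every WT value, and the mean fell 4.16-fold from 36.8 ± 8.32 to 8.83 ± 2.21 FPKM. The limma log2 change was -1.94 ± 0.23 (SE) at an adjusted p of 0.00647. This call held with each library left out in turn. EREG had the largest log2 decrease among the tested members.

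AREG, amphiregulin, is its neighbour in the cluster (ENSG00000109321, chromosome 4, 74445134 to 74455009, plus strand). It stood at 26.3 and 22.4 FPKM in WT and at 7.48 and 10.9 FPKM in KO. The groups were separate, with KO replicate 2 the higher KO library here, unlike for EREG. The mean fell 2.65-fold from 24.3 ± 2.71 to 9.19 ± 2.41 FPKM, and the limma log2 change was -1.33 ± 0.20 (SE) at an adjusted p of 0.0117. Without WT replicate 1 the adjusted p was 0.0565.

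TGFA, transforming growth factor alpha (ENSG00000163235, chromosome 2, 70447280 to 70554193, minus strand), was at 9.97 and 9.02 FPKM in WT and at 3.95 and 3.12 FPKM in KO. Neither group spread by more than 1 FPKM, and TGFA had the smallest SE of the 4 ligands that fell. The mean fell 2.69-fold, from 9.50 ± 0.668 to 3.53 ± 0.582 FPKM, with a limma log2 change of -1.22 ± 0.15 (SE) at an adjusted p of 0.00715, and the call held with each library left out in turn.

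HBEGF, a heparin-binding ligand that also acts as the diphtheria toxin receptor (ENSG00000113070, chromosome 5, 140332843 to 140346631, minus strand), was low throughout, at 2.69 and 2.0 FPKM in WT and 0.700 and 0.688 FPKM in KO. These values rest on 148 and 99 reads in WT and 37 and 34 reads in KO. The mean ratio was 3.38-fold, from 2.34 ± 0.485 to 0.694 ± 0.00878 FPKM, while the fitted limma log2 change of -0.97 ± 0.17 (SE, adjusted p 0.0170) is small for that ratio because 1 FPKM was added before taking logs. On the recovered reads voom gave -1.78. Without WT replicate 1 the adjusted p was 0.0849.

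BTC, betacellulin, which can bind both EGFR and ERBB4 (ENSG00000174808, chromosome 4, 74744759 to 74794686, minus strand), was at 3.39 and 3.49 FPKM in WT and at 2.43 and 1.60 FPKM in KO. The groups did not overlap, with means of 3.44 ± 0.0727 and 2.02 ± 0.586 FPKM, but BTC did not pass (log2 difference -0.57, SE 0.18, limma adjusted p = 0.0734). Without KO replicate 1 its adjusted p was 0.0461, and with voom 0.0371. EPGN, epigen (ENSG00000182585, chromosome 4, 74308473 to 74315307, plus strand), had 0 reads in 3 libraries and 2 reads in KO replicate 2. A level of 3 reads, the limit set on a count of 0, is up to 0.101 FPKM for EPGN and covers counting error only, so its level could not be compared between groups.

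**Figure D2:**
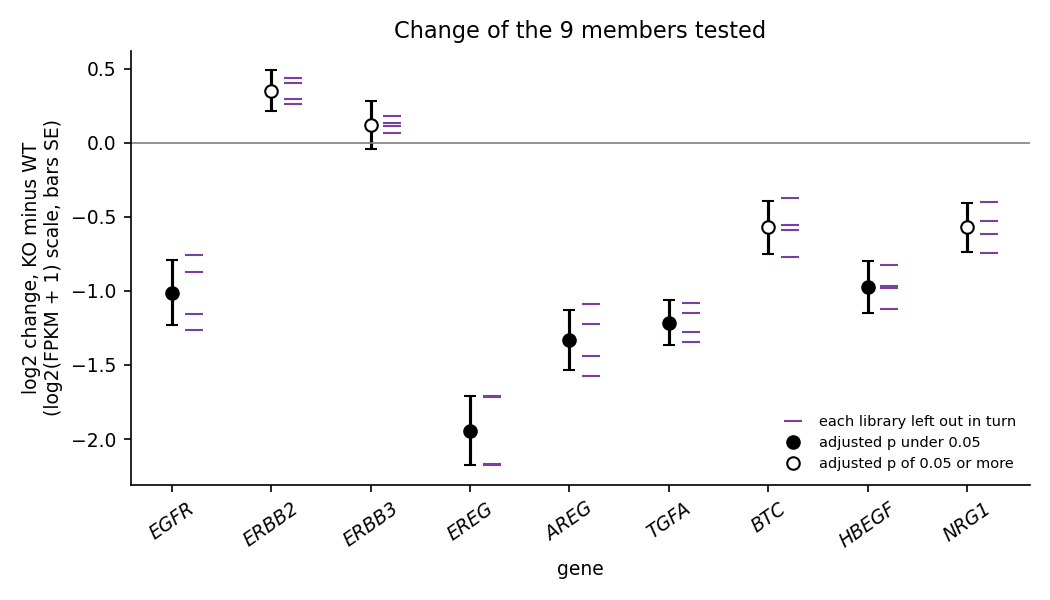
Log2 change, KO minus WT, of the 9 genes tested on the log2(FPKM + 1) scale, with bars of 1 SE, filled points for an adjusted p under 0.05 and purple marks for the change with each library left out in turn. The 5 filled points lie between -1.94 and -0.97, and no mark crosses 0.

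Summed over the 6 EGFR ligands, transcript level was 85.0 and 67.8 FPKM in WT and 25.0 and 23.6 FPKM in KO, a 3.14-fold difference between the means of 76.4 ± 12.1 and 24.3 ± 0.933 FPKM. The exact two-sided permutation p was 0.333, the smallest possible here. EREG made up 50.2% and 45.5% of the sum in WT and 41.7% and 30.8% in KO. AREG made up 30.9% and 33.1% in WT and 29.98% and 46.1% in KO, so these groups overlapped. In WT the order of levels was EREG, AREG, TGFA, BTC and HBEGF, and no neighbours in that order overlapped between libraries. In KO the values of AREG and EREG overlapped, and TGFA, BTC and HBEGF followed without overlap. The EREG to AREG ratio was 1.62 and 1.38 in WT and 1.39 and 0.668 in KO, so the ratio did not separate the groups.

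NRG1, neuregulin 1, signals through ERBB3 and ERBB4 rather than EGFR (ENSG00000157168, chromosome 8, 31639386 to 32767959, plus strand). It was measured at 15.9 and 14.9 FPKM in WT and at 11.4 and 8.80 FPKM in KO. The groups were separate but NRG1 did not pass, with means of 15.4 ± 0.736 and 10.1 ± 1.84 FPKM, a log2 difference of -0.57 (SE 0.16) and a limma adjusted p of 0.0579. NRG1 lay close to the threshold, and the choice of setting moved it across: the adjusted p was 0.0386 without KO replicate 1, 0.0162 with voom and 0.0488 after scaling to equal total reads, but 0.285 without WT replicate 1.

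Of the family genes outside the 10, NRG2, another neuregulin, fell from 1.67 and 1.59 FPKM to 0.227 and 0.284 FPKM, 6.39-fold (log2 change -1.07, limma adjusted p = 0.0123), and it entered the test through its WT level only. The other 4 stayed below 1 FPKM in every library and were not tested. NRG4 stood at 0.642 and 0.679 FPKM in WT and 0.477 and 0.267 FPKM in KO, and EGF itself at 0.429 and 0.269 against 0.233 and 0.189 FPKM. ERBB4, the remaining receptor, stayed at or below 0.0188 FPKM, and NRG3 had 0 reads, which allows up to 0.0361 FPKM.

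The cluster on chromosome 4 spans 486.2 kb, with gaps of 49.8 kb from EPGN to EREG, 56.4 kb from EREG to AREG and 289.8 kb from AREG to BTC. Of the 7 other tested genes within 500 kb of a cluster gene, 4 fell and 0 rose at the limma threshold, and the 4 calls held under every alternative run. At an unadjusted p under 0.05, 1 of the 7 was higher, MTHFD2L, a mitochondrial folate enzyme named after its values were seen and tested through its KO level only, and voom called it higher too. The 4 that fell were CXCL1 (5.63-fold, log2 change -2.47), CXCL2 (2.91-fold, -1.38) and CXCL3 (3.05-fold, -1.32), chemokines that attract neutrophils, and PARM1 (7.30-fold, -1.96), which was tested through its WT level only, and CXCL3 was named after its values were seen. CXCL1, CXCL2 and CXCL3 resemble each other in sequence, so reads could be split between them. The nearby chemokine CXCL5 stood at 186 and 164 FPKM on average and did not pass (log2 difference -0.18, limma adjusted p = 0.459). Over chromosome 4 as a whole, 36 of 483 tested genes fell and 77 rose, with a median log2 change of 0.10. Around ERBB2, 4 of 22 neighbours fell and 1 rose, and 19 of the 22 had a log2 difference below 0 while that of ERBB2 was above it. Over chromosome 17, 198 of 941 tested genes fell and 70 rose, with a median of -0.19, so the share that fell near ERBB2 was close to that of its chromosome. NR1D1, a clock repressor, fell 3.72-fold (log2 change -1.68) and was the only 1 of the 5 calls to remain without WT replicate 2 (adjusted p of the others from 0.0821 to 0.217) or without KO replicate 1 (from 0.0603 to 0.0798), while 2 remained without WT replicate 1 and 3 without KO replicate 2. The gene that rose, SNORD124, named after its values were seen, held 1 and 0 reads in WT and 3 and 3 reads in KO, which is the floor, and did not pass with voom (adjusted p = 0.221). Over chromosome 5, where HBEGF lies, 9.89% of tested genes fell and 12.1% rose. Over chromosome 2, where TGFA lies, 8.93% fell and 11.9% rose. Around HBEGF, 3 of 19 fell and 1 rose, NRG2 among those that fell at a distance of 289.5 kb, and CD14, a lipopolysaccharide co-receptor, fell 2.96-fold. Of these 4 calls, 2 remained with each library left out in turn (adjusted p of the others from 0.0763 to 0.209). Near TGFA, 2 of 12 rose, and 0 of the 2 remained without WT replicate 1 (adjusted p 0.0864 and 0.101) and 1 without WT replicate 2 (0.166) or KO replicate 1 (0.0658). Over chromosome 12, where ERBB3 lies, 12.1% of tested genes fell and 15% rose. Near ERBB3, 5 of 41 rose, with the cell cycle kinase CDK2 3.10-fold higher, and 3 fell, and neither count exceeded the share of the chromosome. Of these 8 calls, 1 remained without WT replicate 1 (adjusted p of the others from 0.0551 to 0.321), 2 without WT replicate 2 (from 0.0800 to 0.268), 5 without KO replicate 1 and 6 without KO replicate 2.

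**Figure D3:**
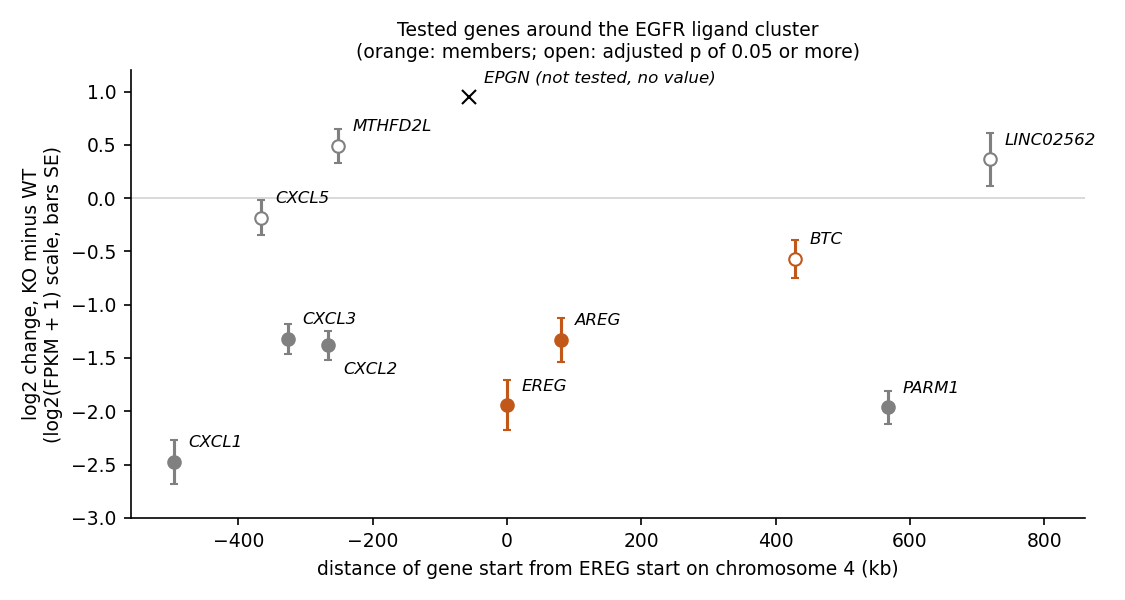
Log2 change, KO minus WT, on the log2(FPKM + 1) scale (bars 1 SE) of the tested genes around the chromosome 4 cluster, against the distance of each gene's start from that of EREG in kb, with orange for the ligands, open points for an adjusted p of 0.05 or more, and a cross that marks only the place of EPGN. EREG, AREG, CXCL1, CXCL2, CXCL3 and PARM1 are filled and below -1, with CXCL5, MTHFD2L, BTC and LINC02562 open among them.

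Ligand release did not move in a single direction. Of 13 genes of shedding, 12 were tested, with a median log2 change of 0.18 against 0.03 over all genes tested. Of these, 3 rose and 2 fell, against 12.1% and 11.1% of all genes tested. TIMP3, the gene not tested, was at 1.02 and 0.888 FPKM in WT (86 and 67 reads). In KO it was at 0 and 0.0265 FPKM (0 and 2 reads). ADAM17, a protease that sheds several of these ligands, was at 6.45 and 6.32 FPKM on average and did not pass (log2 difference -0.03, limma adjusted p = 0.928). ADAM9, another membrane metalloprotease, rose from 58.7 to 103 FPKM (1.76-fold), ADAM12 from 1.14 to 2.88 FPKM (2.53-fold) and ADAM19 1.60-fold. FRMD8 and RHBDF2, which stabilise and carry ADAM17 to the cell surface, fell 1.95-fold and 1.64-fold. These calls did not hold with each library left out in turn, and calls over all genes were then fewer too. Without WT replicate 1 the log2 changes were 0.82 (ADAM9), 0.97 (ADAM12), 0.69 (ADAM19), -0.68 (FRMD8) and -0.60 (RHBDF2). In the fit of all libraries they were 0.80, 0.86, 0.58, -0.89 and -0.66 in that order.

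Of 29 genes that relay the receptor signal, 28 were tested, with a median of -0.10. Of these, 4 fell and 0 rose, against 11.1% and 12.1% of all genes tested. At an unadjusted p under 0.05, 3 were higher and 6 lower, against 20.5% and 18.3% of all genes tested, and voom called 0 higher and 5 lower. The limma calls were STAT3, a transcription factor activated below these receptors (55.2 to 29.6 FPKM, 1.87-fold), the kinases SRC (75.9 to 44.0 FPKM) and MAP2K2 (62.8 to 36.4 FPKM, each 1.72-fold), and the adaptor GRB2 (39.7 to 27.9 FPKM, 1.43-fold). None of the 4 remained without WT replicate 1 (adjusted p from 0.0971 to 0.304) or without WT replicate 2 (from 0.0807 to 0.245), and 1 and 3 remained without KO replicates 1 and 2.

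Of 20 genes that restrain or route the receptors, 19 were tested, with a median of -0.14. Of these, 5 fell and 1 rose, against 11.1% and 12.1% of all genes tested. ERRFI1, which binds and blocks the EGFR kinase, fell 3.28-fold from 64.8 ± 16.9 to 19.8 ± 1.90 FPKM (log2 change -1.64, limma adjusted p = 0.00775). SH3KBP1, an adaptor of receptor uptake, fell 3.25-fold from 62.7 to 19.3 FPKM, and both calls held with each library left out. UBASH3B, RNF41 (a ubiquitin ligase for ERBB3) and PTPRJ (a phosphatase) fell between 1.48-fold and 1.89-fold, and LRIG3 rose from 1.37 to 3.26 FPKM. Of the 6 calls, 2 remained without WT replicate 1 (adjusted p of the others from 0.0619 to 0.218) and 2 without WT replicate 2, 3 without KO replicate 1 and 4 without KO replicate 2.

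Genes whose transcription is known to follow ERK activity were the next list. Of 20 listed, 17 were tested, with a median of -0.86. Of these, 13 fell and 0 rose, against 11.1% and 12.1% of all genes tested, and 4 did not pass (SPRED1, SPRED2, SPRED3 and SPRY1). FOS, not tested, stood at 0.744 and 0.490 FPKM in WT and 0.600 and 0.490 FPKM in KO. EGR2 and EGR3, also not tested, stayed at or below 0.104 FPKM. At an unadjusted p under 0.05, 0 were higher and 15 lower, against 20.5% and 18.3% of all genes tested, and voom called 0 higher and 14 lower. DUSP6, a phosphatase that switches ERK off, fell from 6.40 to 1.81 FPKM (3.54-fold), SPRY2, a feedback inhibitor, from 19.9 to 7.04 FPKM (2.83-fold), and DUSP5, a nuclear ERK phosphatase, from 27.7 to 11.3 FPKM (2.45-fold). FOSL1, EGR1 and IER3, early response genes, fell with log2 changes of -2.61, -2.40 and -2.08, and EGR1 was tested through its WT level only. The number remaining of the 13 was 6 without WT replicate 1, 8 without WT replicate 2, 8 without KO replicate 1 and 9 without KO replicate 2. DUSP5 was among those lost, with an adjusted p of 0.0781 without WT replicate 1 and 0.0520 without KO replicate 1. This list was chosen with earlier results of these data known, and the part of ligand or receptor level in it was not tested.

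Among 38 other receptor tyrosine kinases, 20 stayed below 1 FPKM in every library and 16 were tested, with a median of -0.10. Of these, 3 rose and 2 fell, against 12.1% and 11.1% of all genes tested. NTRK3, a neurotrophin receptor, rose 8.82-fold from 0.848 to 7.48 FPKM and entered the test through its KO level. The fibroblast growth factor receptors FGFR1 (9.73 to 16.6 FPKM, 1.71-fold) and FGFR4 (6.20 to 10.1 FPKM, 1.64-fold) rose. EPHA2 (108 to 63.1 FPKM, 1.72-fold) and the collagen receptor DDR1 (26.0 to 14.7 FPKM, 1.76-fold) fell. MET stood at 77.2 and 58.3 FPKM in WT and 50.9 and 37.4 FPKM in KO. AXL stood at 49.4 and 40.3 FPKM in WT and 37.9 and 33.3 FPKM in KO. Both were lower in both KO libraries, as were 31.3% of all genes tested. Neither passed (log2 differences -0.61 and -0.32, limma adjusted p = 0.105 and 0.215), but voom called MET lower (adjusted p = 0.0291). NTRK3 was the only 1 of the 5 calls to remain without WT replicate 1 (adjusted p of the others from 0.119 to 0.158) or without WT replicate 2 (from 0.105 to 0.172), and 3 remained without KO replicate 1.

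**Figure D4:**
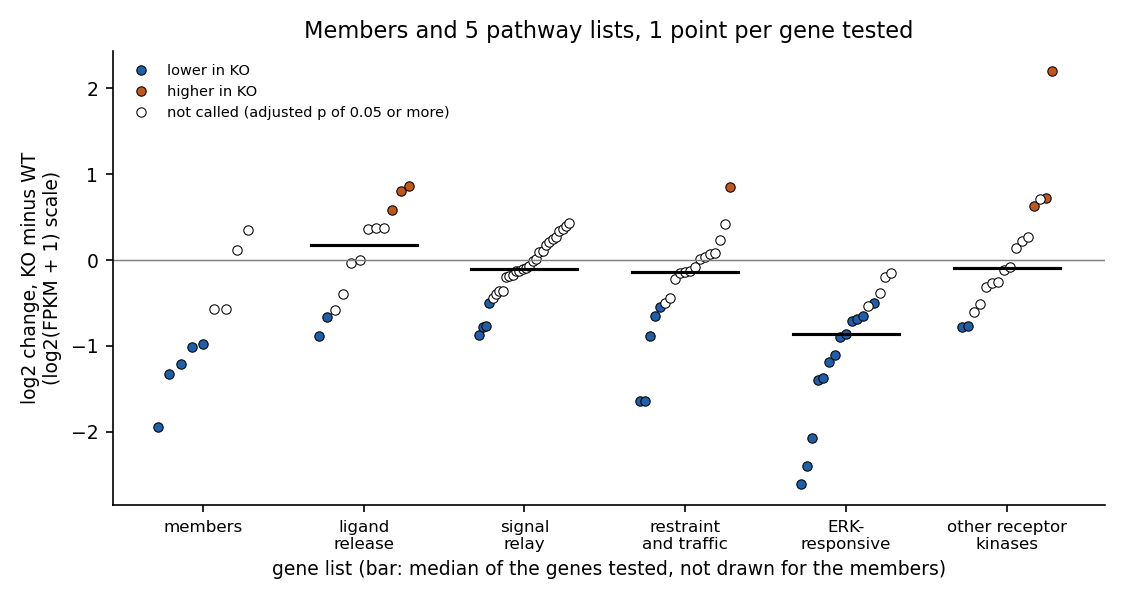
Log2 change, KO minus WT, on the log2(FPKM + 1) scale of every tested gene of the receptor and ligand set (labelled members) and of 5 pathway lists, with blue for lower in KO, orange for higher, open for not passing, and a bar at the median of each pathway list. The ERK-responsive genes have 13 of 17 points filled blue and a median of -0.86, while the medians of the other 4 lists lie between -0.14 and 0.18.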

How the data were processed

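Paired-end reads were aligned with HISAT2 2.0.5, per the labels' protocols, and the submitters' processing notes name the builds hg38 and mm10. The authors deposited FPKM values per gene and library. The counting tool is not given in the sources used here, nor are the strand setting and any scaling. A read per kb came to 0.0610 FPKM in both WT replicate 2 and KO replicate 2, which held 16173899 and 16622382 recovered reads. The FPKM values were thus not scaled by these totals alone. Coordinates of the 10 genes equalled GENCODE release 29 (GRCh38). FPKM times gene length was a whole multiple of 1 step per library for 100% of values (tolerance 0.01), which gave the recovered reads and a floor of 3 reads.

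The fit used limma 3.58.1 in R 4.3.3 on log2(FPKM + 1), with an intensity-dependent prior and no replicate block. Folds are ratios of mean FPKM. Alternatives were pseudocounts of 0.1 and 0.5, a filter at 0.1 FPKM or none, equal total reads, quantile normalization, a constant prior, a replicate block, voom, and each library left out, where the lone library of a group is assumed to vary like the other group. Members and lists were chosen with earlier results of these data known. Named genes were all members, CALU, 5 further family genes, and up to 6 called genes of each list and of the neighbours by size of log2 change. CXCL3, CXCL5, ADAM17, TIMP3 and others given as not passing or not tested, and marker genes, were named after their values were seen. The fit was tested on simulated data, and its first pass mark was replaced after it was missed, because it compared folds on a scale without the added 1 FPKM. The share of false calls in the simulated data was above the threshold's nominal share. Some genes of the signal relay list are not reported here by name.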

Additional observations from a re-analysis of the deposited data

How the results depend on the processing

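Across 13 alternatives, 0 of the 9 tested members changed direction. The number of members called lower was 0 with no filter on low values, where EGFR had an adjusted p of 0.109, HBEGF 0.0872, AREG 0.0673, EREG 0.0564 and TGFA 0.0523, and 2 to 7 with each library left out in turn. Over all genes, calls numbered 183 higher and 193 lower with no filter, and 505 to 1321 higher and 537 to 1260 lower with a library left out. With a replicate block, calls rose to 2968 higher and 2577 lower, and 7 members were lower, BTC (adjusted p = 0.0305) and NRG1 (0.0126) among them. Same-numbered libraries deviated together (correlation 0.411), but 2 pairs share only a number in the labels. With a filter at 0.1 FPKM, EGFR did not pass (adjusted p = 0.0569). Depth limits EPGN, ERBB3 and HBEGF, and 2 libraries per group limit every test. The cause of these shifts was not tested.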
